A study of Mus musculus with 14 samples.

Results

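The integrated stress response genes described here are 10 genes of 1 pathway, chosen by symbol among the 54532 genes of the deposited count table. They are the transcription factors Atf4, Atf3 and Ddit3, the amino acid synthesis genes Asns, Psat1 and Phgdh, the feedback and effector genes Trib3, Chac1 and Sesn2, and the hormone gene Fgf21. In ileum mucosa of mice fed a high fat diet (HFD), 2 of the 10 genes, Chac1 and Sesn2, had higher levels in mice without NCoR1 in intestinal epithelial cells. Only 9 of the 10 had enough counts for a test, and among all genes tested 4.38% passed as higher. The count of 2 fell to 0 when the wild-type mouse WT 7 or the knockout mouse IKO 5 was left out. Atf4, which sits at the head of the pathway, did not pass the test.

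In the integrated stress response, kinases that sense amino acid shortage, unfolded protein in the endoplasmic reticulum (ER), double-stranded RNA or heme loss phosphorylate the translation factor eIF2. Most protein synthesis then slows, while the mRNA of ATF4 is translated more. ATF4 and its partners bind C/EBP-ATF response elements and raise genes for amino acid supply, and prolonged signaling induces the factor CHOP, which Ddit3 encodes. Because ATF4 protein is set largely by translation, the Atf4 mRNA level is an incomplete measure of the pathway, and target mRNAs are often read in its place. NCoR1 is a corepressor that nuclear receptors use to silence their targets.

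RNA of scraped ileum mucosa was sequenced in 7 WT mice, which carry NCoR1 flox/flox without Cre, and 7 IKO mice, which carry the same floxed alleles and a Cre driven by the villin promoter. All 14 mice were male and were on the HFD, with 60% of energy from fat, for 15 weeks, starting at 7 to 8 weeks of age according to the general methods of the study, while another passage of it describes older mice. Villin-Cre acts in the epithelium, so the other cells of the scraped mucosa keep NCoR1. Each library is 1 mouse.

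The libraries held 14749669 to 21557468 counts on genes. The share of mitochondrially encoded genes was 50.3% in IKO 4 and 23.9% in WT 3, against 3.49% to 10.3% in the other 12 mice. Summed smooth muscle markers reached 15165 CPM (normalized counts, with library sizes scaled by TMM factors) in WT 4, 1260 CPM in IKO 1 and 702 CPM in IKO 2, and were at most 199.97 CPM in the others. The labels name the cells as epithelial, and all 10 epithelial markers of a fixed list were measured, with sums of 12930 to 20556 CPM in WT and 17495 to 24019 CPM in IKO mice. Ncor1 itself ranged from 106 to 195 CPM in WT and from 31.7 to 64.0 CPM in IKO mice, with no overlap (log2 fold change -1.41, standard error 0.18, adjusted p = 0.00051 in edgeR's quasi-likelihood test). Throughout, adjusted p values come from that test with Benjamini-Hochberg adjustment over the 13846 genes tested, and a gene was called at an adjusted p under 0.05.

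The response element through which ATF4 acts can be looked for in the sequence around each start site. RefSeq windows on GRCm38.p6, from 250 bases before to 50 bases after a start, were searched on both strands for TGATGNAA, whose reverse complement is TTNCATCA. It was found for 5 of the 10 genes, against 3.97% of all 32851 windows. With the last base left free (TGATGNA) the same count of 5 stood against 12.2% of windows. A DR1 element, to which PPARα binds with RXR, was looked for with up to 2 mismatches and was found for 0 of the 10 genes and in 3.86% of all windows. The 5 sites are shown because they are the letters that Asns, Atf3, Chac1, Fgf21 and Trib3 share, each as 30 bases on the strand of the gene with the motif in capitals. The lines read from 5′ to 3′.
Asns, chr6:7693214-7693243, minus strand: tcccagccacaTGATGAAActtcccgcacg
Atf3, chr1:191183425-191183454, minus strand: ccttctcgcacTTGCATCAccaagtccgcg
Chac1, chr2:119351038-119351067, plus strand: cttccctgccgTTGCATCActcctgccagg
Fgf21, chr7:45615611-45615640, minus strand: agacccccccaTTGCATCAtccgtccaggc
Trib3, chr2:152344028-152344057, minus strand: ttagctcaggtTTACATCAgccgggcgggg

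The first base of the motif lies at -23 in Asns, -110 in Atf3, -193 in Chac1 and -139 in Fgf21, and at 15 in Trib3, counted from the RefSeq start site as base 1. In Asns the motif is on the strand of the gene, and in the other 4 it is on the opposite strand. By the GENCODE annotation all 30 bases shown for Asns and 5 of those shown for Trib3 are in an exon, and those of Atf3, Chac1 and Fgf21 are in none. The windows of Atf4, Ddit3, Psat1, Phgdh and Sesn2 do not hold these letters, which says nothing of sites elsewhere.

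Chac1 and Sesn2 were the genes that differed between the genotypes, and so the stretch before the first annotated exon is given for both, with a motif in Chac1 in capitals and none in Sesn2.
Chac1, chr2:119350992-119351228, plus strand: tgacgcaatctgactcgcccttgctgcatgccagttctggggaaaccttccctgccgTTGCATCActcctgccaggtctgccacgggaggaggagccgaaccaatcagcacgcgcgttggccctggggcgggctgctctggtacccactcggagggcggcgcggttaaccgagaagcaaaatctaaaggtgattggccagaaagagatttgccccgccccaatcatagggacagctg
Sesn2, chr4:132510502-132510706, minus strand: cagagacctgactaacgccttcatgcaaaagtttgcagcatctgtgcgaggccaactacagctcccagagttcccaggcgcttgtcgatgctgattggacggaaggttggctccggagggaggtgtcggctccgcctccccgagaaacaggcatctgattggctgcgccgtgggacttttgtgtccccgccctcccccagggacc

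Levels of different genes were compared per length, as deposited FPKM (mean ± SD, n = 7). In WT mice Atf4 was at 102.9 ± 36.3 FPKM, and its lowest mouse, at 64.4 FPKM, was above the highest mouse of every other member. Atf3 followed at 17.3 ± 11.9 FPKM, Ddit3 at 15.0 ± 9.32 FPKM and Trib3 at 9.95 ± 4.28 FPKM. Asns stood at 4.27 ± 0.707 FPKM, Sesn2 at 3.297 ± 0.618 FPKM and Phgdh at 3.26 ± 1.91 FPKM. The lowest of the measured genes were Psat1 at 1.71 ± 0.738 FPKM and Chac1 at 0.966 ± 0.246 FPKM. From Atf3 down to Chac1, the ranges of all neighbors in this order overlapped, so neighbors were not separated by the spread between mice. Some genes further apart were separated. The lowest WT mouse of Atf3, at 6.29 FPKM, was above the highest of Asns, at 4.94 FPKM. The lowest of Asns, at 2.94 FPKM, was above the highest of Chac1, at 1.42 FPKM. In IKO mice the order was the same except that Chac1, at 2.52 ± 1.32 FPKM, stood above Psat1 at 1.76 ± 0.548 FPKM, with overlapping ranges.

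To ask whether the loss of NCoR1 moved the pathway, each gene was compared between 7 IKO and 7 WT mice. Of the 10 genes, 9 had enough counts for the test, and 2 of these were called higher and 0 lower. Among all genes tested, 8.67% were called, 4.38% higher and 4.28% lower. These were 607 higher and 593 lower genes, and with limma on log2(FPKM + 1) the split was 708 and 328. At an unadjusted p under 0.05 there were 3 of 9 genes, each with a higher level in IKO mice, against 30.4% of all genes tested, which is near the same share. DESeq2 called the same 2 genes higher and 0 lower, where 7.62% of its genes were called higher. The fitted level was higher in IKO mice for 7 of the 9 genes and lower for 2 (median log2 fold change 0.21, against -0.09 over all genes tested), and 4 of these signs changed, those of Ddit3, Psat1 and Phgdh under several settings and that of Trib3 without WT 7. The count of 2 fell to 0 without WT 7 or IKO 5 and to 1 without WT 4, IKO 1, IKO 4 or IKO 7. For 6 genes, Atf4, Ddit3, Asns, Trib3, Psat1 and Phgdh, the 95% confidence interval of the fold ended below 2.

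**Figure D1:**
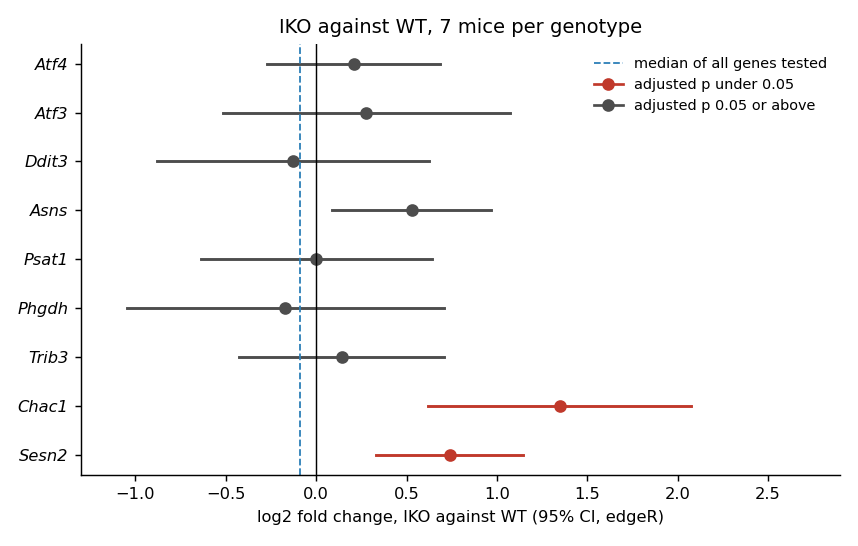
Log2 fold change of 9 integrated stress response genes in IKO against WT mice, with 95% confidence intervals from edgeR and 7 mice per genotype. Only the intervals of Chac1, Sesn2 and Asns lie above 0, and only Chac1 and Sesn2 (red) passed the adjusted test. The sign of the points of Ddit3, Psat1 and Phgdh changed under other settings, and that of Trib3 without WT 7. The dashed line is the median of all genes tested, at -0.09.

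The transcription factors come first in the pathway. Atf4, the factor whose translation the response raises, ran from 155 to 369 CPM in WT mice with a median of 222 CPM, and from 199 to 401 CPM in IKO mice with a median of 279.8 CPM. The groups overlapped almost throughout, and only IKO 2 was above the highest WT mouse, while WT 1 and WT 7 were below the lowest IKO mouse. The log2 fold change was 0.21 (95% confidence interval -0.27 to 0.69, adjusted p = 0.554 in edgeR). Atf3, a repressor of the same family that also responds as an immediate early gene, ran from 13.8 to 88.4 CPM in WT mice (median 29.3 CPM) and from 26.3 to 81.3 CPM in IKO mice (median 41.5 CPM). Its spread was the widest of the 3 factors in WT mice, with a ratio of highest to lowest mouse of 6.40, and 0 of 7 IKO mice were above the WT range (log2 fold change 0.28, 95% confidence interval -0.51 to 1.07, adjusted p = 0.641 in edgeR).

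Ddit3, which encodes the proapoptotic factor CHOP, ran from 11.8 to 52.0 CPM in WT mice (median 17.2 CPM) and from 13.7 to 41.8 CPM in IKO mice (median 24.3 CPM). WT 2, WT 3 and WT 4 were the high mice of their group, and IKO 2 that of the other. The log2 fold change of -0.13 (95% confidence interval -0.88 to 0.63, adjusted p = 0.836 in edgeR) turned to 0.06 without WT 2 and 0.13 without WT 3 and was above 0 in 6 of 12 other settings, and the IKO median was the higher one. Of the 1713 exonic bases of Ddit3, 186 are shared with other annotated genes, among them 68 with the 3′ end of Mars on the other strand and 105 with a second Ddit3 entry that held 0 counts in all mice. Whether counting used the strand, and how reads on shared bases were assigned, is not given in the sources used here. The effect of the 186 shared bases on the counts of Ddit3 is therefore not known.

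The genes of amino acid synthesis are classic targets of ATF4. Asns makes asparagine from aspartate and glutamine. It ran from 8.25 to 13.8 CPM in WT mice (median 12.7 CPM) and from 10.1 to 22.6 CPM in IKO mice (median 18.7 CPM). In 5 of 7 IKO mice it was above every WT mouse, while IKO 3 and IKO 6 were within the WT range. The difference, a log2 fold change of 0.53 (standard error 0.21), had an unadjusted p of 0.0213 and an adjusted p of 0.106 in edgeR, and so was not called. DESeq2 gave an adjusted p of 0.0603.

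Phgdh and Psat1 encode the first steps of serine synthesis from a glycolytic intermediate. Psat1 ran from 2.71 to 11.6 CPM in WT mice (median 6.05 CPM) and from 3.96 to 11.3 CPM in IKO mice (median 7.47 CPM). The IKO range lay within the WT range, and the log2 fold change was 0.00 (95% confidence interval -0.64 to 0.64, adjusted p = 0.998 in edgeR), with its sign changed in 6 of 12 other settings. Phgdh ran from 2.72 to 15.1 CPM in WT mice (median 8.95 CPM) and from 4.13 to 17.1 CPM in IKO mice (median 6.45 CPM). It was the gene with the widest interval of the amino acid group, -1.05 to 0.71 around a log2 fold change of -0.17 (adjusted p = 0.808 in edgeR), whose sign changed in 2 of 12 other settings, those without WT 4 and IKO 4. Only IKO 2 was above the WT range, and 6 of 7 IKO mice were below the WT median.

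The feedback and effector genes held both calls. Trib3, a pseudokinase that ATF4 and CHOP induce and that restrains ATF4, ran from 8.17 to 35.7 CPM in WT mice (median 22.1 CPM) and from 17.0 to 33.6 CPM in IKO mice (median 23.3 CPM). All 7 IKO mice were within the WT range, and the log2 fold change was 0.14 (95% confidence interval -0.43 to 0.71, adjusted p = 0.749 in edgeR), or -0.011 without WT 7.

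Chac1, a glutathione-degrading cyclotransferase downstream of ATF4, ATF3 and CHOP, was the gene with the largest difference of the 9. It ran from 1.03 to 2.33 CPM in WT mice (median 1.52 CPM) and from 1.42 to 7.64 CPM in IKO mice (median 4.24 CPM), from 13 to 148 counts per mouse. In 5 of 7 IKO mice it was above every WT mouse, whereas IKO 4, at 1.42 CPM, and IKO 6, at 1.84 CPM, were within the WT range. The level was 2.54-fold higher in IKO mice (95% confidence interval 1.54 to 4.21, log2 fold change 1.35, standard error 0.34, adjusted p = 0.0283 in edgeR). In an exact two-sided permutation test of the log2 levels over all 3432 divisions of the mice, p was 0.00991. The call was lost in edgeR without WT 7 (log2 fold change 1.31, adjusted p = 0.0580), IKO 1 (1.38, adjusted p = 0.0504), IKO 5 (1.13, adjusted p = 0.0735) or IKO 7 (1.28, adjusted p = 0.0529).

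Sesn2, a sestrin that ATF4, p53 and NRF2 can induce and that senses leucine for mTORC1, ran from 8.74 to 15.7 CPM in WT mice (median 12.1 CPM) and from 13.01 to 29.95 CPM in IKO mice (median 18.0 CPM). All 7 IKO mice were above the WT median and 5 were above every WT mouse, while 6 of 7 WT mice were below every IKO mouse. The level was 1.67-fold higher in IKO mice (95% confidence interval 1.26 to 2.21, log2 fold change 0.74, standard error 0.19, adjusted p = 0.0298 in edgeR). The exact two-sided permutation p was 0.00175, where 0.000583 is the smallest the design can give. The highest mouse was IKO 4, in which the mitochondrial share was 50.3% and in which Chac1 was the lowest of the IKO mice. Without IKO 4 the log2 fold change of Sesn2 was 0.61 (adjusted p = 0.0521 in edgeR), and the call was also lost without WT 4 (0.68, adjusted p = 0.0527), WT 7 (0.69, adjusted p = 0.0622) or IKO 5 (0.70, adjusted p = 0.0679).

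The mouse samples are mixtures, in which fewer cells of a type and less RNA per cell cannot be told apart. Beside the higher Chac1 and Sesn2, all 10 epithelial markers had a higher fitted level in IKO mice, with 0 called by edgeR, 1 at an unadjusted p under 0.05, 1 called by DESeq2 and a median log2 fold change of 0.34. All 8 smooth muscle markers tested had a lower one, with 0 called by either tool and 1 at an unadjusted p under 0.05, and their sums ran from 155 to 15165 CPM in WT and from 124 to 1260 CPM in IKO mice. Of 7 fibroblast markers 6 had a lower fitted level, with 0 called by edgeR, 6 at an unadjusted p under 0.05, and 1 called higher and 1 lower by DESeq2. Their median log2 fold change was -1.75, and their sums ran from 21.6 to 510 CPM in WT and from 30.2 to 79.6 CPM in IKO mice. The highest sum of both the muscle and the fibroblast markers was in WT 4, and the next WT mouse in fibroblast markers was WT 7 at 120 CPM. The median sums were closer, at 183 CPM in WT and 139 CPM in IKO mice for muscle and 60.1 and 45.3 CPM for fibroblasts. Of 10 markers of stem and cycling cells 8 were lower, with 0 called by edgeR, 5 at an unadjusted p under 0.05, 1 called lower by DESeq2, and sums of 209 to 497 CPM in WT and 215 to 378 CPM in IKO mice. Of 11 plasma and B cell markers 9 were lower (0 called by either tool, 4 at an unadjusted p under 0.05 in edgeR, sums of 234 to 905 CPM in WT and 326 to 665 CPM in IKO mice). Of 10 T cell markers 8 were lower (0 called by edgeR, 3 by DESeq2, 4 at an unadjusted p under 0.05 in edgeR, sums of 89.5 to 237 CPM in WT and 109 to 277 CPM in IKO mice). Of 10 ileal enterocyte markers 8 had a higher fitted level (0 called by either tool, 0 at an unadjusted p under 0.05 in edgeR, median log2 fold change 0.44). Of 9 goblet markers 8 were higher (0 called by edgeR, 1 by DESeq2), and of 10 Paneth markers 7 (0 called by either tool). Of 10 myeloid markers 9 were lower (0 called by edgeR, 1 by DESeq2, median -0.45). The part of these cell types in the differences of Chac1 and Sesn2 was not tested.

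**Figure D2:**
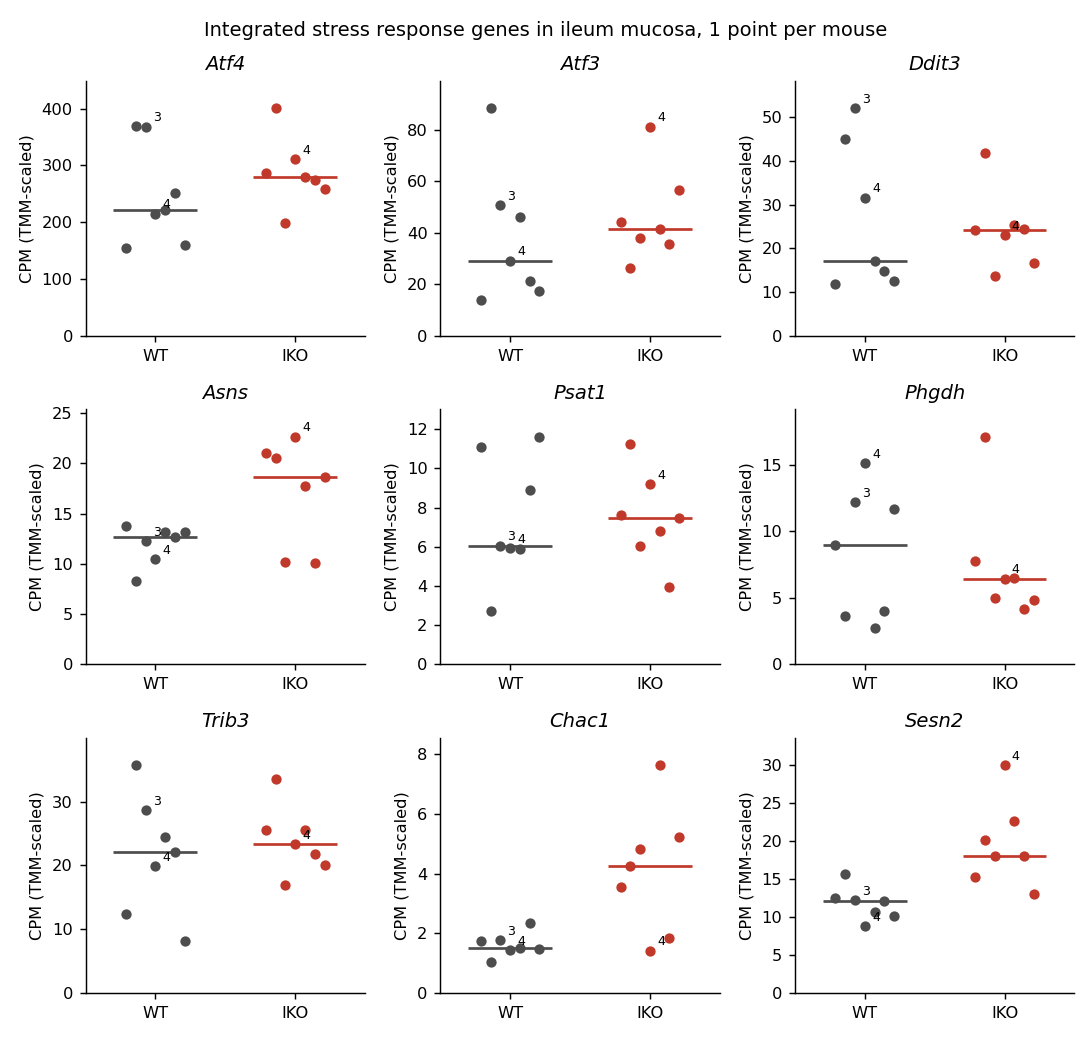
Levels of the 9 measured genes in CPM (linear axes from 0) for each of 7 WT and 7 IKO mice, 1 point per mouse, with a line at the median of the genotype. The mice with high mitochondrial shares (WT 3, IKO 4) and high smooth muscle markers (WT 4) carry their numbers. In Chac1, Sesn2 and Asns, 5 of 7 IKO points lie above all WT points and the rest lie within the WT range. In Atf4, Atf3, Ddit3, Trib3, Psat1 and Phgdh, at most 1 IKO point lies above all WT points.

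Fgf21, a hormone that ATF4 and PPARα induce in liver, was close to absent. It had 2 counts in WT 1, 1 in WT 6 and 0 in the other WT mice, or 0.0244 CPM over the 122998238 counts of the group. All 7 IKO mice had 0 counts, which over their 129422988 counts allows up to 0.0232 CPM by counting error alone. Both of these Fgf21 values divide by summed library counts, without the TMM factors that enter CPM elsewhere. The WT value rests on 3 counts and has no interval here, so the values do not show a difference between the genotypes. The gene was below the filter of the main analysis, so edgeR made no test or fold there. DESeq2 fitted a log2 fold change of -0.88 with a standard error of 3.08 and gave no adjusted p.

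The 9 genes were also set against each other, to ask whether the difference between the genotypes was unequal among them. Of the 36 ratios between pairs of genes, 2 differed between the genotypes at an unadjusted p under 0.05 in exact permutation tests and 0 after Benjamini-Hochberg adjustment. Both involved Chac1. Its log2 ratio to Psat1 was -2.03 ± 0.53 in WT and -0.97 ± 0.89 in IKO mice (SD, n = 7, exact permutation p = 0.0221, adjusted p = 0.424), and that to Phgdh was -2.06 ± 1.01 and -0.86 ± 0.98 (SD, n = 7, exact permutation p = 0.0466, adjusted p = 0.424). The call of Chac1 and the missing call of the serine genes were therefore not shown to differ from each other.

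Within a genotype, some of the genes varied together between mice. After the genotype mean was taken from each log2 level, 4 of 36 pairs passed a permutation test over 14 mice (100000 shuffles within genotype, adjusted over the 36 pairs), and all 4 were positive. For Atf4 and Trib3, Pearson's r was 0.90 (permutation p = 0.0002, adjusted p = 0.00276) and Spearman's rho was 0.91 (permutation p = 7e-05, adjusted p = 0.00252). For Atf4 and Ddit3, r was 0.89 (permutation p = 0.00023, adjusted p = 0.00276) and rho was 0.75 (permutation p = 0.00562, adjusted p = 0.0607). For Ddit3 and Trib3, r was 0.80 (permutation p = 0.00252, adjusted p = 0.0227) and rho was 0.82 (permutation p = 0.00143, adjusted p = 0.0257). For Asns and Psat1, r was 0.75 (permutation p = 0.00023, adjusted p = 0.00276) and rho was 0.73 (permutation p = 0.00675, adjusted p = 0.0607). Only Atf4 with Trib3 and Ddit3 with Trib3 passed by rho as well.

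Each of these 4 pairs held in both genotypes and without the 2 mice farthest from the median of the first gene. The r of Atf4 and Trib3 was 0.90 within WT, 0.94 within IKO and 0.86 without WT 2 and WT 3, and that of Atf4 and Ddit3 was 0.87, 0.94 and 0.80. The r of Ddit3 and Trib3 was 0.76, 0.97 and 0.71, and that of Asns and Psat1, without IKO 3 and IKO 6, was 0.88, 0.84 and 0.79. Atf4, Ddit3 and Trib3 were high together in WT 2, WT 3 and IKO 2 and low together in WT 1, WT 7 and IKO 3. Chac1 and Sesn2, the genes that differed between the genotypes, were in none of the 4 pairs. The r of Atf4 was -0.18 with Chac1 (permutation p = 0.478) and 0.41 with Sesn2 (permutation p = 0.124), and that between Chac1 and Sesn2 was -0.36 (permutation p = 0.306).

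**Figure D3:**
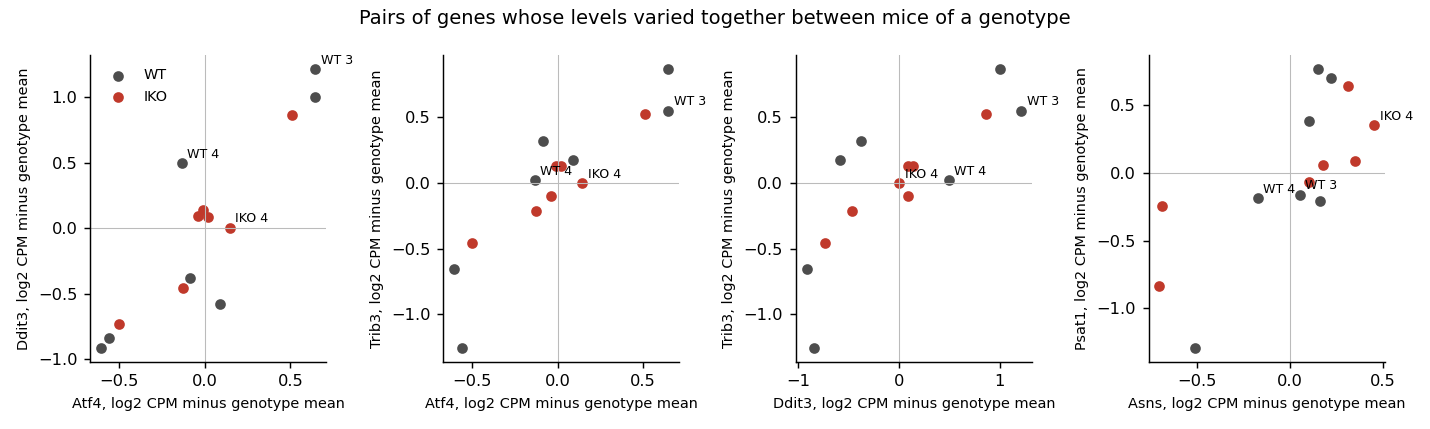
Log2 CPM of each mouse minus the mean of its genotype, for the 4 pairs of genes that passed the permutation test, with WT in gray and IKO in red and 7 mice each. Points rise together in each panel, and WT 3, WT 4 and IKO 4 are named. Pearson's r is 0.89, 0.90, 0.80 and 0.75 from left to right.

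Genes outside the pathway varied with Atf4 too. Among 8217 other genes with a mean log2 level of at least 3, 43 had an r with Atf4 at least as high as that of Trib3, and 58 at least as high as that of Ddit3. With Ddit3, 444 had an r at least as high as that of Trib3. Among 8218 other genes, 43 had an r with Asns at least as high as that of Psat1, and 187 had an r with Psat1 at least as high as that of Asns. The genes most like Atf4 over the 14 mice were Prr13 (r = 0.97), Acaa1a (r = 0.96) and Pkp3 (r = 0.95). Those most like Ddit3 were Dapk3 (r = 0.97), Jund (r = 0.97) and Atn1 (r = 0.96), and those most like Asns included Oaz1 (r = 0.88) and Adh5 (r = 0.85).

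WT 1 and WT 7, low in Atf4, Ddit3 and Trib3, also had the lowest summed epithelial markers of the WT mice, at 14924 and 12930 CPM, and the lowest summed immediate early genes, at 1143 and 1005 CPM. Over 27 relations of the 9 genes with the epithelial sum, the mitochondrial share and the immediate early sum, 1 passed after adjustment. This was a negative relation of Psat1 with the immediate early sum (r = -0.86, permutation p = 0.00011, adjusted p = 0.00297; rho = -0.70, permutation p = 0.0119, adjusted p = 0.321), with an r of -0.93 within WT, -0.72 within IKO and -0.71 without WT 2 and WT 7. The immediate early sum had an r of 0.79 with Trib3, 0.64 with Atf4 and 0.56 with Ddit3. None of these passed (adjusted p = 0.0738, 0.134 and 0.213 by permutation). They were 0.97, 0.90 and 0.77 within WT, and -0.50, -0.64 and -0.52 within IKO. Within IKO mice the mitochondrial share had an r of 0.74 with Sesn2 and -0.63 with Chac1, and over all mice neither relation passed (adjusted p = 0.103 and 0.213 by permutation).

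The rest of the pathway was described with 15 lists of 197 other genes, of which 182 were tested. Of these, 13 were called higher and 2 lower, or 8.24%, near the 8.67% of all genes. The 15 calls became 8 without WT 1, 6 without WT 7 or IKO 1 and 5 without IKO 5. Of 4 eIF2 kinases, only Eif2ak4, which encodes the amino acid sensor GCN2, was called, and it fell. It ran from 2.67 to 6.13 CPM in WT and from 1.41 to 3.27 CPM in IKO mice, with 6 of 7 IKO mice below every WT mouse (log2 fold change -0.98, standard error 0.26, adjusted p = 0.0338 in edgeR). This call was lost in 6 of 10 other settings and with 9 of 14 mice left out in turn. Of 11 subunits and phosphatases of eIF2 and eIF2B, 0 were called, 0 had an unadjusted p under 0.05 and DESeq2 called 0. The smallest p values were those of Ppp1r15b, which encodes a phosphatase subunit that restores eIF2 (log2 fold change 0.53, adjusted p = 0.211 in edgeR), and Eif2s2, the beta subunit of eIF2 (0.30, adjusted p = 0.320).

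Of 9 other transcription factors of the response, 0 were called by edgeR and 1 had an unadjusted p under 0.05. This was Maff, a small MAF factor (log2 fold change 0.72, adjusted p = 0.0510 in edgeR), which DESeq2 called higher (adjusted p = 0.0172), and Batf2 came next (0.27, adjusted p = 0.357 in edgeR). Of 17 other targets of ATF4, 1 rose, Herpud1, a membrane protein of ER-associated degradation (log2 fold change 1.07, standard error 0.26, adjusted p = 0.0230). Ddit4, Sqstm1 and Gdf15, which were picked after their values were seen, had log2 fold changes of 0.88, 0.63 and 1.56 and adjusted p values of 0.0511, 0.0524 and 0.0641 in edgeR, and DESeq2 called these 3 higher. The median of the 17 was 0.03, with 10 higher and 7 lower fitted levels and 4 genes at an unadjusted p under 0.05 in edgeR. Their summed level, in which genes with high counts weigh most, was 507 to 713 CPM in WT mice. In IKO mice it was 748 to 1019 CPM, with no overlap.

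Cytosolic tRNA synthetases charge tRNAs and are raised by ATF4. Of 20 tested, 4 rose and 0 fell, where 4.38% of all genes were called higher, and 9 had an unadjusted p under 0.05, against 30.4% of all genes. The median log2 fold change was 0.23. The 4 that rose were Aars (0.64, adjusted p = 0.0286), Qars (0.52, adjusted p = 0.0365), Nars (0.76, adjusted p = 0.0420) and Gars (0.47, adjusted p = 0.0442). Their standard errors ran from 0.14 to 0.22 in edgeR. The summed level of the list was 948 to 1152 CPM in WT and 1130 to 1653 CPM in IKO mice, where only IKO 6 was within the WT range. DESeq2 called 5 higher and 1 lower. The count in edgeR fell to 0 without WT 4 and IKO 4 together, and also without WT 1, WT 3, WT 7, IKO 1 or IKO 5 alone. It was 1 without WT 4, IKO 2 or IKO 4 and 2 without WT 2, IKO 3 or IKO 7. Of the 13 synthetases with a promoter window, 5 held TGATGNAA, against 3.97% of all windows. They were Aars and Gars, which rose, and Iars, Tars and Yars, which were not called.

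Amino acid transporters under ATF4 were looked at next. Of 11 tested, 0 were called by edgeR or DESeq2, 3 had an unadjusted p under 0.05 in edgeR, and 9 had a lower fitted level in IKO mice (median log2 fold change -0.34). The smallest p values were those of Slc43a1, a transporter of large neutral amino acids (log2 fold change -1.17, adjusted p = 0.0811), and Slc1a5, a glutamine transporter (-0.55, adjusted p = 0.0833). Of 12 enzymes of serine, glycine and folate metabolism 0 were called by either tool and 1 had an unadjusted p under 0.05, with Amt of the glycine cleavage system (-0.80, adjusted p = 0.119) and Mthfd2l, a mitochondrial folate enzyme (-0.20, adjusted p = 0.512), at the smallest p values. Of 5 genes of proline synthesis 0 were called by either tool and 1 had an unadjusted p under 0.05, and here Aldh18a1 (0.60, adjusted p = 0.0901) and Oat (0.35, adjusted p = 0.270) came first.

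Among 28 ER chaperones and targets of XBP1 and ATF6, the other arms of the unfolded protein response, 5 rose and 0 fell, again beside 4.38% of all genes called higher, with a median log2 fold change of 0.41. At an unadjusted p under 0.05 there were 8 of 28, near the 30.4% of all genes. The 5 called genes were Herpud1, Manf, Sec61b, Sdf2l1 and Creld2. Manf is a secreted ER stress protein (0.79, adjusted p = 0.0222 in edgeR) and Sec61b a translocon subunit (0.86, adjusted p = 0.0268). Sdf2l1 is a chaperone partner (0.92, adjusted p = 0.0280) and Creld2 an ER-resident isomerase (0.72, adjusted p = 0.0495). The call of Creld2 was lost in 7 of 12 other settings and with 11 of 14 mice left out in turn. IKO 4 stood apart here. Manf was between 133 and 178 CPM in the other 6 IKO mice and 60.3 CPM in IKO 4, below the 72.8 CPM of the lowest WT mouse. The sum of the list was 2090 CPM in IKO 4 and 3462 CPM in IKO 2, 6313 to 6893 CPM in the other IKO mice and 2736 to 5336 CPM in WT mice. The count of 5 fell to 2 without WT 7 and to 1 without IKO 1 or IKO 5.

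Lists of other stress programs were set beside these. Of 14 mitochondrial chaperones and proteases 0 were called by edgeR or DESeq2 and 1 had an unadjusted p under 0.05, with Dnaja3 (0.39, adjusted p = 0.131) and Hspa9 (0.51, adjusted p = 0.169) at the smallest p values. Of 13 cytosolic heat shock genes 0 were called by either tool and 6 had an unadjusted p under 0.05, with Hspa4l (-0.70, adjusted p = 0.0977) and Hsp90aa1 (-0.76, adjusted p = 0.0992). Of 20 immediate early genes 2 rose, the antiproliferative Btg2 (1.08, adjusted p = 0.00709) and Ier5 (0.91, adjusted p = 0.00891), and in both all 7 IKO mice were above every WT mouse. Of these 20, 6 had an unadjusted p under 0.05 in edgeR, which called 4.38% of all genes higher. DESeq2 called 3 genes of the list higher and 0 lower. Of 14 targets of p53 1 rose, Sesn1 (0.78, adjusted p = 0.0334), a relative of Sesn2, a call that was lost in 5 of 12 other settings and with 8 of 14 mice left out in turn. In the p53 list 8 of 14 genes had a lower fitted level, and 4 had an unadjusted p under 0.05 in edgeR. DESeq2 called 3 p53 targets higher and 0 lower. Among 6 relatives of Sesn2, Trib3 and Chac1, Sesn1 and Trib1 rose, beside 4.38% of all genes called higher. The other 4 had a lower fitted level, with 0 called by edgeR, and the median log2 fold change of the 6 was -0.15. Of the 6, 4 had an unadjusted p under 0.05 in edgeR, and DESeq2 called 2 higher and 1 lower. Trib1, a pseudokinase that acts with the ubiquitin ligase COP1, was above the WT range in all 7 IKO mice (0.85, adjusted p = 0.0125). Of 5 endocrine FGF and FGF receptor genes tested, Fgfr3 fell (-1.34, adjusted p = 0.0124), and Fgf15, the ileal hormone of the family, which was picked after its values were seen, did not pass (-1.75, adjusted p = 0.0616 in edgeR). DESeq2 called both lower. As a measure of the size of change in these mice, 9 of 12 PPARα targets rose, with a median log2 fold change of 1.82.

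**Figure D4:**
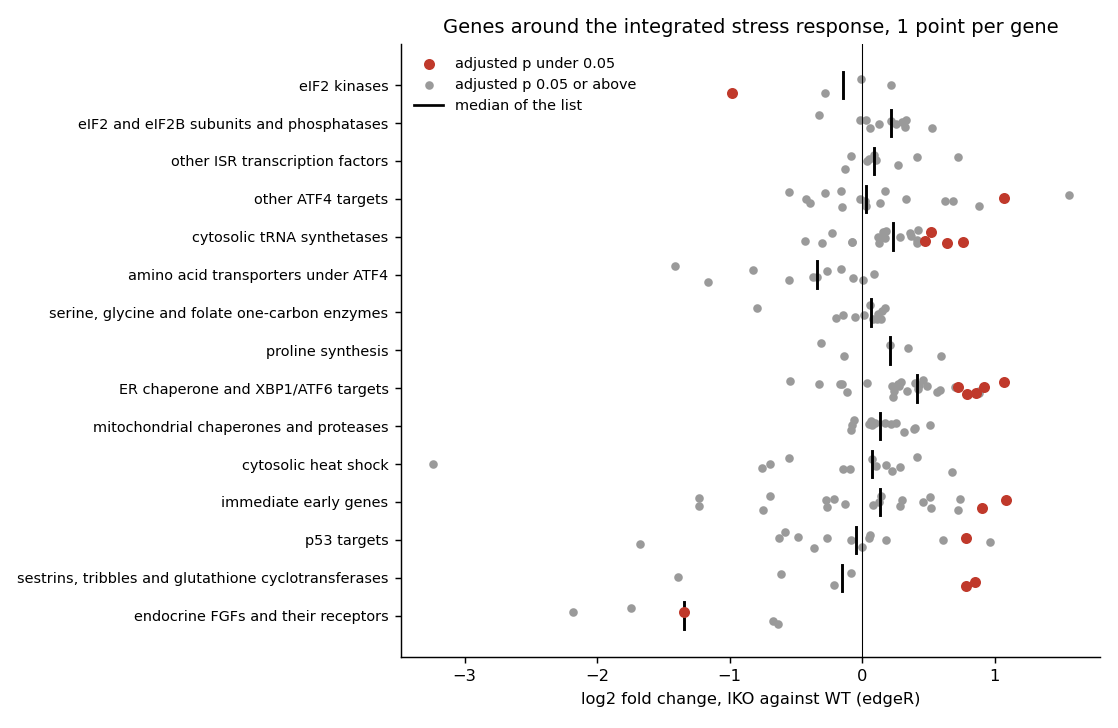
Log2 fold change in IKO against WT mice for the tested genes of 15 lists around the integrated stress response, 1 point per gene, with called genes in red and a bar at the median of each list. The 4 called tRNA synthetases and the 5 called ER genes lie to the right of 0, and Eif2ak4 and Fgfr3 to the left. The sign of the medians of the one-carbon, proline, heat shock and p53 lists changed in at least 1 of 12 other settings.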

How the data were processed

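Ileum mucosa RNA of 14 mice was analyzed, with genotypes taken from the sample titles. Per the labels and the methods, libraries were made from total RNA with a NEBNext kit, aligned with HISAT2 2.0.5 to mm10 and counted with featureCounts 1.5.0-p3, and the submitters' notes also name DESeq2 1.16.1. The strand setting is not given in the sources used here. The counts were deposited as whole numbers, not normalized. The deposited FPKM equal counts per kilobase divided by the DESeq2 size factor of the mouse times 1 constant, as checked on the values.

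After filterByExpr and TMM scaling, the genotypes were compared by the quasi-likelihood test of edgeR 4.0.16 under R 4.3.3, in a model of genotype alone. A prior count of 2 entered the log2 levels used for ratios, correlations and permutation tests. The alternatives were DESeq2 1.42.0, RLE scaling, mitochondrial genes left out, no filter, at least 10 counts in every mouse, limma 3.58.1 on log2 FPKM with pseudocounts of 1 and 0.1 (genes above 0.5 FPKM in at least 7 mice) or without that filter, limma-voom with sample weights, the sample number as a block, and mice left out.

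The 10 genes and all lists were chosen with earlier results of these data known. Named are all 10 genes, the called genes of each list, and the genes with the 2 smallest p values in lists without a call. Outside this rule, Ddit4, Sqstm1, Gdf15 and Fgf15 were picked after their values were seen, and synthetases are named for a promoter motif. The genes most like Atf4, Ddit3 and Asns are those with the 3 highest Pearson r, of which 1 is not reported here. Each mouse had at least 14749669 counts, and intervals of single counts cover counting error only. Gene positions in the files match GENCODE M21 on GRCm38 for all 10 genes. RT-qPCR, protein and metabolite measurements of the study were not analysed here.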

Additional observations from a re-analysis of the deposited data

Results flagged for a closer look

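Dixon's test at its 95% level was applied to the 9 measured genes and to 5 properties of the libraries in each genotype, 28 groups of 7 mice. Chance alone marks about 1 in 20 groups, or 1.4 here, and 3 were marked. None was a gene of the integrated stress response. The mitochondrial share of IKO 4, at 50.3%, was far from the next IKO mouse at 6.10% (a gap of 0.944 of the range of the group). That of WT 3, at 23.9%, was far from the next WT mouse at 10.3% (0.676 of the range). The smooth muscle sum of WT 4, at 15165 CPM, was far from the next WT mouse at 199.97 CPM (0.997 of the range). In IKO 4, Sesn2 was the highest and Chac1 the lowest of the IKO mice, and in WT 3, Ddit3 was the highest of all mice. The part of the mitochondrial share and of muscle in these levels was not tested.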

How the results depend on the processing

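Atf4, Atf3 and Asns kept their direction and stayed above the threshold in 12 other settings and with each mouse left out, and Chac1 and Sesn2 kept their direction in all of these. The main analysis called 1200 genes, 2 integrated stress response genes, 15 listed genes, 4 tRNA synthetases and 5 ER genes. DESeq2 called 2571 genes and 25 listed genes, and limma-voom with sample weights called 1889 and 25, with log2 fold changes of 0.33 for Ddit3 and -0.34 for Psat1. With no filter on low counts, 508 genes, 7 listed genes, 0 integrated stress response genes, 0 synthetases and 3 ER genes were called (Chac1 1.37, adjusted p = 0.0715; Sesn2 0.75, adjusted p = 0.0539; Psat1 -0.0047), where 29041 genes were tested. With limma on log2(FPKM + 1) and no filter, 614 genes, 6 listed genes, 0 integrated stress response genes and 0 ER genes were called (Chac1 0.76, adjusted p = 0.0960; Sesn2 0.61, adjusted p = 0.0538; Ddit3 0.057). With the filter, Ddit3 was at 0.057, and at 0.071 with a pseudocount of 0.1. Psat1 was at -0.070 with at least 10 counts in every mouse and at -0.0056 without mitochondrial genes. Without WT 4 and IKO 4, 606 genes, 8 listed genes, 1 integrated stress response gene and 0 synthetases were called (Sesn2 0.55, adjusted p = 0.0801; Psat1 -0.10; Phgdh 0.071). Without WT 3 as well, these were 433, 7, 1 and 0, with 3 ER genes (Sesn2 0.55, adjusted p = 0.115; Ddit3 0.27; Psat1 -0.16; Phgdh 0.28). The cause of these shifts was not tested, and this includes the smaller number of mice and the larger number of genes tested. By Spearman's rho 2 pairs of genes passed in place of 4.

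Whether the sample numbers pair the mice is not known. The correlation of same-numbered mice ran from -0.31 to 0.23 and was over 0.1 in 1 of 7 pairs. Of the 7 WT mice, 1 was closest to its own number. Low correlations cannot exclude that same-numbered mice were related or handled together. With the replicate block 362 genes, 4 listed genes, 0 integrated stress response genes, 0 synthetases and 0 ER genes were called (Chac1 1.21, adjusted p = 0.112; Sesn2 0.71, adjusted p = 0.0951; Ddit3 0.064).

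With each mouse left out in turn, 515 to 1371 genes, 5 to 21 listed genes, 0 to 2 integrated stress response genes, 0 to 4 synthetases and 1 to 5 ER genes were called. Log2 fold changes ran from 1.13 to 1.496 for Chac1, 0.61 to 0.82 for Sesn2, -0.31 to 0.13 for Ddit3, -0.011 to 0.31 for Trib3, -0.14 to 0.13 for Psat1 and -0.52 to 0.042 for Phgdh. The median of all genes moved by 0.12 with limma on log2(FPKM + 1), 0.13 with a pseudocount of 0.1 and -0.23 with no filter on counts. Fgf21, at 3 counts in all, was left out by the filters on low levels and got no adjusted p from DESeq2. Its values in the settings without a filter are not given here.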
